A study of Mus musculus with 12 samples.

Results

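Klf9 and 8 further genes that respond to glucocorticoid hormones, namely Fkbp5, Tsc22d3, Zbtb16, Sgk1, Errfi1, Cdkn1a, Klf15 and the receptor gene Nr3c1, were followed through cardiomyocytes isolated from dystrophic mouse hearts. They are 9 of the 18530 genes measured, were named by symbol, and all 9 passed the filter on low values (at least 1 TPM in at least 3 libraries, which left 12798 genes). TPM values are scaled by gene length and library total. Klf9 was chosen by its measured difference between genotypes under PB1046, and the other 8 were selected as known glucocorticoid-responsive genes with earlier results of these data in view. Klf9 values that involve libraries treated with PB1046 are therefore a description and were not tested. All animals were mdx, the mutation that removes dystrophin from muscle. Some of them, written mdx:Utrn+/-, had also lost a working copy of Utrn, the gene of utrophin, a relative of dystrophin that can stand in for part of its function. Within each genotype animals received saline or what the labels call a high dose of PB1046, a long-acting relative of the vasoactive intestinal peptide (VIP), on alternate days between weeks 4 and 12 of life, and hearts were taken in week 14. The protocol names 0.75 and 1.5 mg/kg. Poly-A RNA was sequenced in 12 libraries, 3 in each of the 4 groups. The labels do not say that each library is a separate animal, so p-values measure the spread between these libraries, and no group without the mdx mutation was analysed here.

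Glucocorticoids enter cells and bind the glucocorticoid receptor, the product of Nr3c1, which then moves to the nucleus and binds palindromic elements near its target genes. The target Fkbp5 closes a feedback loop, since it encodes a chaperone that lowers the receptor's hormone affinity. Klf9 and Klf15 encode Kruppel-like transcription factors that act on further targets. Glucocorticoids are a standard treatment of Duchenne muscular dystrophy, and their release follows the time of day. VIP receptors act mainly through cyclic AMP, protein kinase A and the transcription factor CREB, which several glucocorticoid targets also answer to.

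Libraries held 7234100 to 25458194 reads, and between 64 and 5423 of them stood behind each member's value in a library. Within mdx depth did not overlap, with 18162940 to 25458194 reads under saline and 11468009 to 14182350 under PB1046. In mdx:Utrn+/- it overlapped. With group means removed, log2 reads ran most strongly with or against Errfi1 (r -0.69), Klf15 (0.68) and Klf9 (-0.56). The part of depth in the members' values was not tested. Under saline Utrn ranged from 8.92 to 11.3 TPM in mdx libraries and from 3.32 to 6.28 TPM in mdx:Utrn+/- libraries, and 6.11 to 18.3 and 4.39 to 9.92 TPM under PB1046, where the genotypes overlapped. All 8 cardiomyocyte markers were present, together at 94800 to 134000 TPM. Endothelial (9 of 9 markers, 201 to 1320 TPM), fibroblast (7 of 7, 155 to 888 TPM) and macrophage markers (8 of 9 in the table, 69.3 to 431 TPM) were also found in every group, while 4 adipocyte markers summed to 3.9 TPM at most. A transcript of the ribosomal RNA precursor, Rn45s, ranged from 1039 to 42106 TPM. In mdx it was 1039 to 10403 TPM under saline and 11570 to 25861 TPM under PB1046, without overlap. No gene passed an adjusted p of 0.05 (limma, Benjamini-Hochberg) in any of 5 contrasts, and limma-voom on reads recovered from the TPM also called 0. Counts at an unadjusted p under 0.05 were 407 for PB1046 in mdx, 246 for PB1046 in mdx:Utrn+/-, 489 between genotypes under saline, 226 between genotypes under PB1046 and 316 for the difference of the PB1046 responses (445, 218, 492, 227 and 279 with limma-voom). Log2 differences below are on the scale log2(scaled TPM + 1), which understates changes of low genes.

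Upstream sequence of the members was read from RefSeq (GRCm38.p6, the build called mm10) for 7 of the 9, in 16 windows that start 250 bases before a transcript start. Zbtb16 and Nr3c1 were not analysed in this way. The 250 upstream bases of all 32851 windows were searched on both strands for the palindromic receptor element (AGAACA and TGTTCT with 3 bases between them), for its single arm AGAACA, for the cyclic AMP response element TGACGTCA, for its core TGACG and for the E-box CACGTG that clock factors bind. A full element also counts as a match to the shorter motif it contains. The share of all windows with a match was 0.00913% (3 windows) for the palindrome, 16.1% for its arm, 1.55% for the full cyclic AMP element, 17.8% for its core and 6.02% for the E-box. The 4 stretches that follow are shown because they hold the receptor element or its arm (Sgk1, Tsc22d3) or the cyclic AMP element or its core (Errfi1, Klf9), with the match in capitals.
Sgk1, chr10:21993656-21993760, plus strand: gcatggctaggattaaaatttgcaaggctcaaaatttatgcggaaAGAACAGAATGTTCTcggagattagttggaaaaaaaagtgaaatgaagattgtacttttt
Tsc22d3, chrX:140600660-140600752, minus strand: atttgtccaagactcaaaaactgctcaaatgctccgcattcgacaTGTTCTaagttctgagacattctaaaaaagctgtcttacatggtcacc
Errfi1, chr4:150854974-150855069, plus strand: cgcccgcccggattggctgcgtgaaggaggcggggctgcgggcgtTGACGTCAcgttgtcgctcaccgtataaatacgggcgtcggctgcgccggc
Klf9, chr19:23141135-23141225, plus strand: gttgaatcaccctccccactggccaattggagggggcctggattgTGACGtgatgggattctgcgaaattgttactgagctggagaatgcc
All 4 stretches lie upstream of the start and outside exons. The Sgk1 match, 1 of the 3 palindromes among all windows, begins 189 bases before a start at 21993890. That start is 1 of several of the gene and lies inside its span (chr10:21882184-21999902). In Tsc22d3 the single arm lies 185 bases before the start at 140600522. Errfi1 carries the full cyclic AMP element 51 bases before 150855070, and Klf9 carries only its core, 46 bases before 23141226. Klf15 has TGACG 78 and 6 bases and CACGTG 228 and 172 bases before its start, Fkbp5 has CACGTG 169 bases before its start, and the windows of Cdkn1a held none of these motifs. The window of the printed Sgk1 stretch also holds CACGTG 246 bases and a further arm 242 bases before its start, and other windows of Sgk1 and Tsc22d3 held matches to the shorter motifs. A match is a description of letters and says nothing of binding in these cells.

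Mean levels over the 12 libraries ran from 6.62 TPM for Zbtb16 to 107 TPM for Tsc22d3, with Fkbp5 at 10.2, Errfi1 at 16.4, Nr3c1 at 19.7, Klf9 at 20.3, Klf15 at 27.5, Cdkn1a at 31.1 and Sgk1 at 44.4 TPM. Tsc22d3 stood above 94.4% and Zbtb16 above 56.9% of all genes. The widest range belonged to Cdkn1a, 13.6-fold between its lowest and highest library, and the narrowest to Nr3c1, 2.58-fold. On deposited TPM the group with the highest mean was PB1046-treated mdx for 8 of the 9 genes and saline-treated mdx:Utrn+/- for Zbtb16. On scaled TPM it was PB1046-treated mdx for 6, and saline-treated mdx:Utrn+/- for Zbtb16, Fkbp5 and Klf15. Without scaling the median gene was itself higher in treated than in saline-treated mdx (log2 difference 0.143). Under PB1046 it was lower in mdx:Utrn+/- than in mdx (-0.198). The share of all genes with their highest mean in each group was not computed, so these counts are a description. Group membership took up 65.6% of the variance of Klf9 and 64.6% of that of Errfi1, against 22.9% for the median gene. The Klf9 share includes the libraries by which the gene was chosen, so it is a description only. For Fkbp5 the share was 24.5%, and its spread within groups (SD 0.901 on the log2 scale) exceeded that of the other members and the 0.322 of the median gene.

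**Figure D1:**
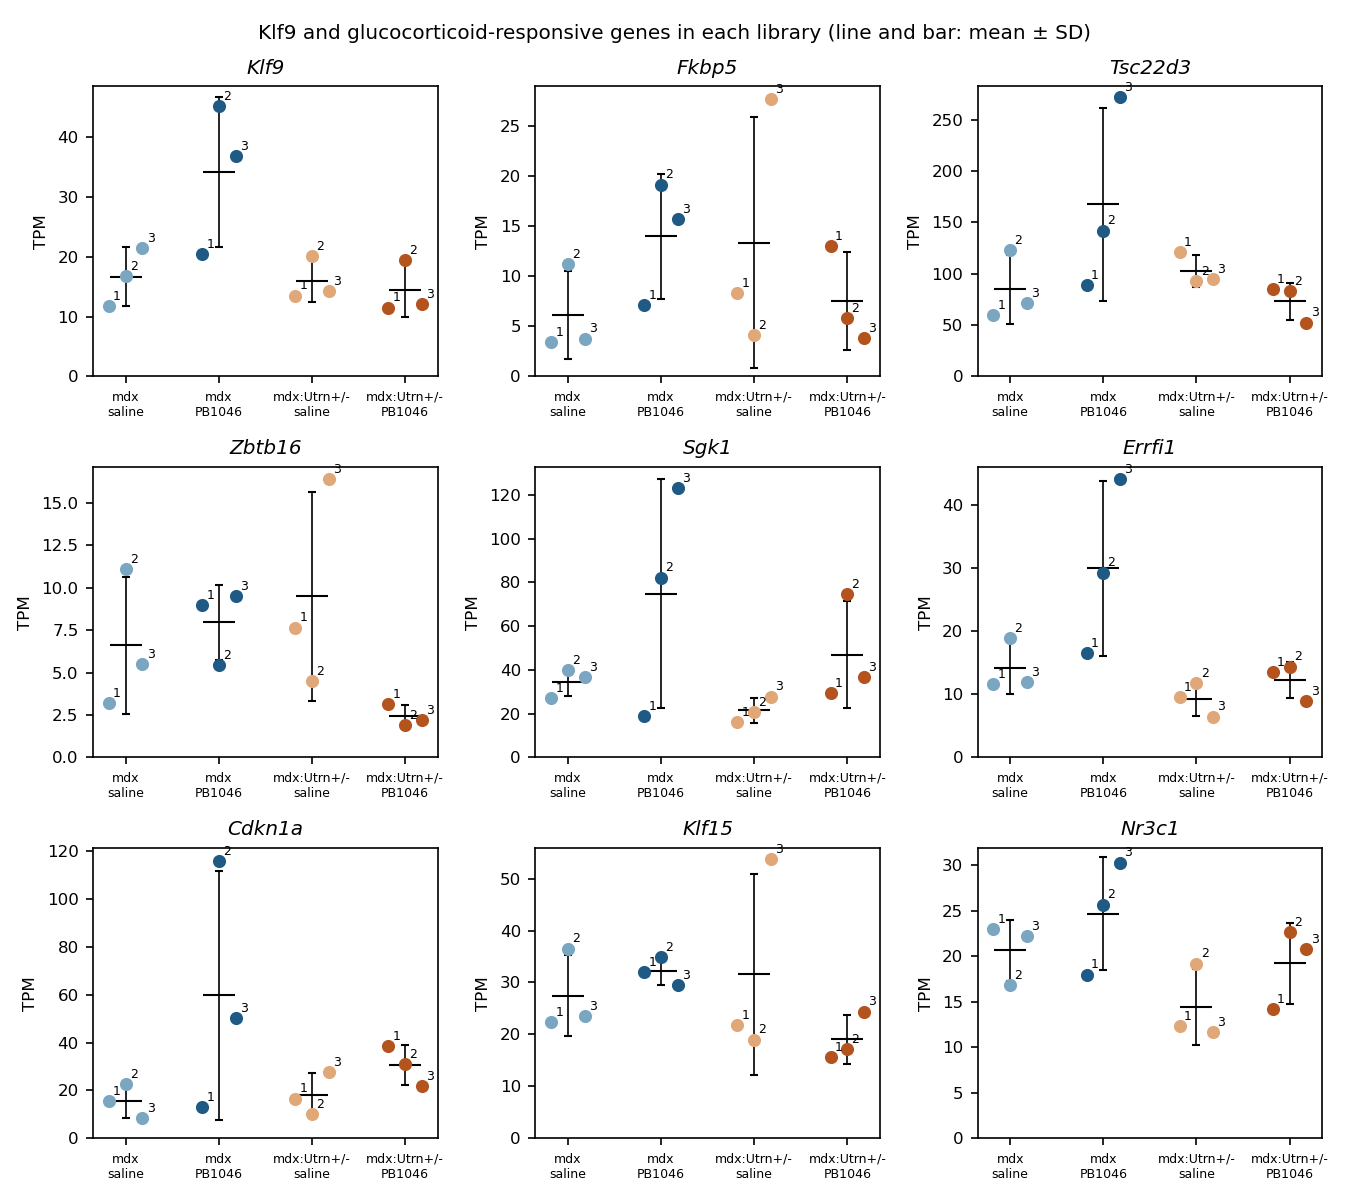
TPM of the 9 genes in each library (points, numbered by replicate) of the 4 groups, with the group mean (line) and SD (bar, n = 3). In Klf9 the 2 highest points are PB1046-treated mdx libraries at 45.2 and 36.8 TPM, while the third, at 20.5 TPM, lies below the highest saline library at 21.5 TPM.

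Klf9 had its highest mean in PB1046-treated mdx cardiomyocytes and similar means in the other groups. It measured 11.7, 16.8 and 21.5 TPM in mdx under saline (16.7 ± 4.87, SD, n = 3) and 20.5, 45.2 and 36.8 TPM in mdx under PB1046 (34.2 ± 12.6, n = 3). The mdx:Utrn+/- libraries had 13.5, 20.1 and 14.3 TPM under saline (16 ± 3.59, n = 3) and 11.5, 19.5 and 12.1 TPM under PB1046 (14.3 ± 4.45, n = 3). Every PB1046-treated mdx library was thus above every PB1046-treated mdx:Utrn+/- library, the contrast by which the gene was picked. Its log2 difference there was -0.92 (95% interval -1.45 to -0.38), the 76th lowest of 12798 genes. Against saline, the same treated mdx libraries differed by 0.78 (0.24 to 1.32), and mdx:Utrn+/- libraries by -0.31 (-0.84 to 0.23). These values share libraries with the choice of the gene and carry no test.

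The comparison of genotypes under saline used no library that entered the choice of Klf9. Its log2 difference was 0.17 (95% interval -0.37 to 0.70, limma adjusted p = 0.9021), and both groups covered nearly the same range. On TPM as deposited, with no scaling factor, the value was -0.04. Without scaling the median of all genes shifted by 0.143 (mdx) and 0.148 (mdx:Utrn+/-) when PB1046 was compared with saline, and by -0.198 between genotypes under saline and under PB1046 alike, so that the Klf9 value turned sign with the scaling and stayed near 0. Klf9 moved with Rn45s across the 12 libraries (Pearson r 0.67, and 0.61 with group means removed) and against the cardiomyocyte marker score, the mean centred log2 level of its 8 markers (r -0.69, and -0.57 with group means removed). With log2 Rn45s as a term of the fit, the Klf9 value was 0.048 between genotypes under saline, 0.60 for PB1046 in mdx, -0.235 for PB1046 in mdx:Utrn+/- and -0.79 between genotypes under PB1046, with -0.83 for the difference of the PB1046 responses. The part of the cardiomyocyte markers was not tested, and in such bulk RNA fewer cells of a type and less RNA per cell cannot be told apart.

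**Figure D2:**
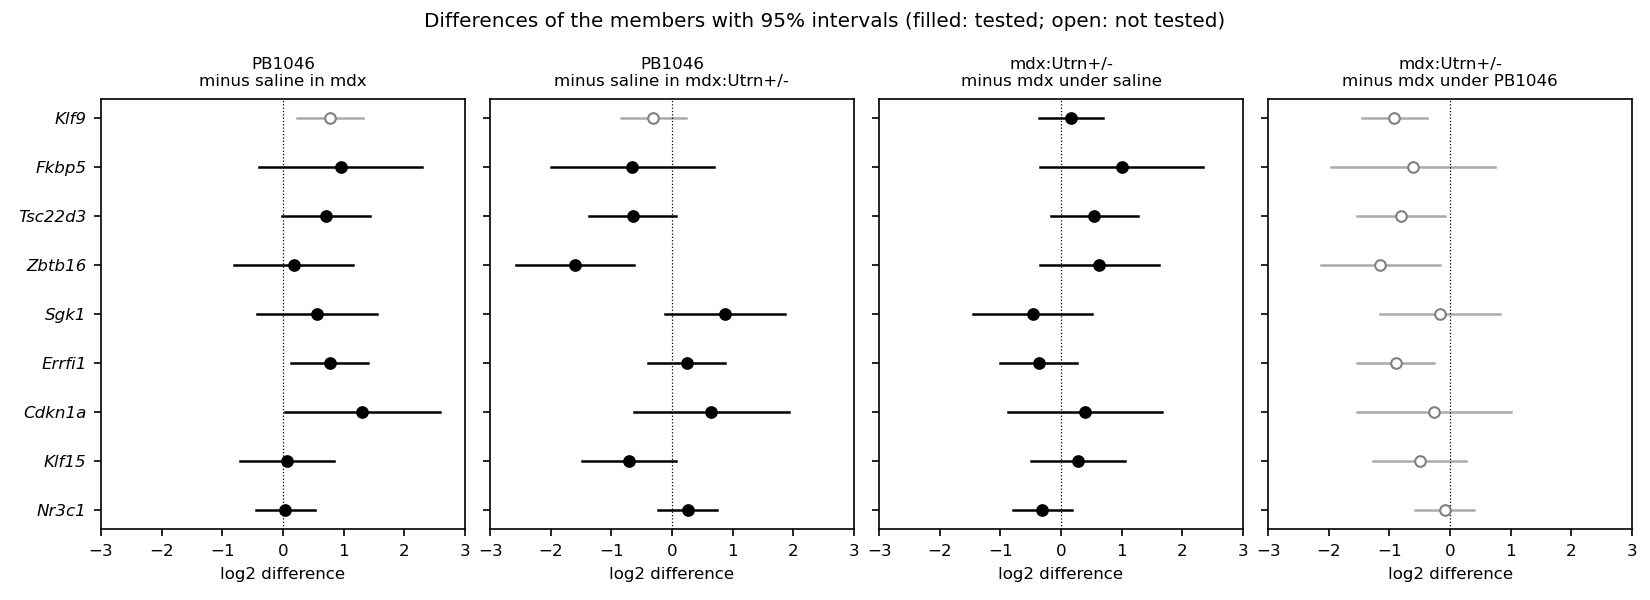
Log2 differences of the 9 genes in the 4 simple comparisons (points) with 95% intervals from limma (bars); filled points were tested and open points were not. Intervals that exclude 0 among tested points belong to Errfi1 and Cdkn1a for PB1046 in mdx and to Zbtb16 for PB1046 in mdx:Utrn+/-, all with adjusted p above 0.99.

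Nr3c1, the receptor itself, varied least. It was 23.0, 16.8 and 22.2 TPM in mdx under saline, 18, 25.7 and 30.3 TPM in mdx under PB1046, 12.3, 19.2 and 11.7 TPM in mdx:Utrn+/- under saline and 14.2, 22.7 and 20.8 TPM in mdx:Utrn+/- under PB1046. All groups overlapped their neighbours. Its log2 difference with PB1046 was 0.04 (-0.44 to 0.53) in mdx and 0.26 (-0.23 to 0.74) in mdx:Utrn+/-, and under saline the genotypes differed by -0.31 (-0.79 to 0.18; limma adjusted p = 0.8673).

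Of 13 genes that handle the receptor or its hormone, 12 passed the filter. Hsd11b2, which inactivates glucocorticoids, was the gene below it. None passed the test in any contrast. With PB1046, 10 of 12 were higher in mdx (median 0.15, all genes -0.02) and 7 of 12 in mdx:Utrn+/- (median 0.01, all genes 0.02). Hsd11b1, which regenerates active hormone inside cells, was 9.64 ± 4.70 TPM in mdx under PB1046 and 3.98 ± 1.16 TPM under saline (n = 3 each, log2 difference 0.86, limma adjusted p = 0.9995). Hsp90aa1, a chaperone that holds the receptor ready for hormone, was 184 ± 76.6 TPM in mdx:Utrn+/- and 122 ± 19.7 TPM in mdx under saline (n = 3 each, log2 difference 0.75, limma adjusted p = 0.8673).

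Fkbp5, Tsc22d3 and Zbtb16 are widely used readouts of receptor activity. Tsc22d3 encodes GILZ, a leucine zipper protein that mediates anti-inflammatory effects of glucocorticoids, and Zbtb16 encodes the transcription repressor PLZF. With PB1046 all 3 had higher fitted values in mdx and lower ones in mdx:Utrn+/-, and none passed the test.

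Fkbp5 measured 3.44, 11.2 and 3.76 TPM in mdx under saline and 7.06, 19.1 and 15.7 TPM under PB1046. With the Utrn mutation added it measured 8.30, 4.10 and 27.6 TPM under saline and 13.0, 5.78 and 3.77 TPM under PB1046. One saline library of mdx:Utrn+/-, replicate 3, held the highest level of all 12, and the groups overlapped throughout. PB1046 and saline differed by 0.95 (log2, -0.40 to 2.30) in mdx and -0.66 (-2.0 to 0.69) in mdx:Utrn+/-, and the latter became 0.02 without that library. Under saline the genotypes differed by 1.00 (-0.35 to 2.34), and by 0.32 without it.

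Tsc22d3 stood at 59.6, 123 and 71.7 TPM in mdx under saline and at 89.0, 142 and 272 TPM under PB1046 (84.6 ± 33.5 and 168 ± 94.2, n = 3 each). Its levels in mdx:Utrn+/- were 121, 92.9 and 94.7 TPM under saline and 84.7, 82.8 and 52.4 TPM under PB1046 (103 ± 15.5 and 73.3 ± 18.1, n = 3 each). The treated mdx:Utrn+/- libraries all lay below the saline ones. PB1046 minus saline was 0.71 (log2, -0.02 to 1.43) in mdx and -0.65 (-1.37 to 0.07) in mdx:Utrn+/-. The value in mdx was 0.375 without replicate 3 of the treated group. Macrophage markers moved in the same directions: 8 of 8 were higher with PB1046 in mdx (summed 127 to 431 against 69.3 to 342 TPM) and 8 of 8 lower in mdx:Utrn+/- (82.0 to 143 against 82.7 to 356 TPM). None was at 0 in all libraries, and Tsc22d3 followed their score across libraries (r 0.70, 0.66 with group means removed). Tsc22d3 also followed the fibroblast score (r 0.70, 0.62 with group means removed), and ran against the cardiomyocyte score (r -0.56, -0.59 with group means removed). The 7 fibroblast markers all had higher fitted values with PB1046 in mdx (sums of 471 to 888 TPM treated and 206 to 589 TPM under saline) and lower ones in mdx:Utrn+/- (212 to 353 and 155 to 461 TPM). The part of these markers in the Tsc22d3 values was not tested.

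Zbtb16 was lowest in PB1046-treated mdx:Utrn+/- cardiomyocytes, at 3.16, 1.89 and 2.20 TPM on 110, 83 and 155 reads. Under saline the same genotype had 7.65, 4.48 and 16.4 TPM, so the groups did not overlap. In mdx it was 3.22, 11.1 and 5.50 TPM under saline and 8.97, 5.43 and 9.52 TPM under PB1046. The log2 difference with PB1046 in mdx:Utrn+/- was -1.60 (95% interval -2.58 to -0.63), the 7th lowest of 12798 genes, with a limma adjusted p of 0.9998. It lay between -2.0 and -1.17 when a library was left out. In the authors' deposited table of that comparison Zbtb16 had a log2 fold change of -2.11 (sign turned to PB1046 minus saline) and a false discovery rate of 0.3, and no gene had a lower one there. In mdx the log2 difference was 0.18 (-0.80 to 1.16), and between genotypes under saline it was 0.63 (-0.34 to 1.61), and 0.20 without replicate 3 of saline-treated mdx:Utrn+/-.

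Sgk1, a kinase that raises sodium channel and transporter activity and is induced in many cell types by hormones and stress, was the member with the palindromic element printed above. It measured 27.1, 40 and 36.5 TPM in mdx under saline and 19.0, 82.2 and 123 TPM under PB1046. The mdx:Utrn+/- libraries had 16, 20.6 and 27.7 TPM under saline and 29.4, 74.7 and 36.6 TPM under PB1046, and here every treated library was above every saline library. The treated mdx libraries held both the highest level of Sgk1 and its lowest but 1. The log2 difference with PB1046 was 0.87 (-0.11 to 1.86) in mdx:Utrn+/- and 0.56 (-0.42 to 1.55) in mdx, where it was 1.21 without replicate 1 and 0.12 without replicate 3 of the treated group.

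Sgk1 followed the endothelial marker score across the 12 libraries (r 0.88, and 0.91 with group means removed). It also ran against the cardiomyocyte score (r -0.79, and -0.82 with group means removed), and the part of the cardiomyocyte markers was not tested. PB1046-treated mdx held the lowest endothelial score (replicate 1, -0.916) and the highest (replicate 3, 1.053). In mdx:Utrn+/- 9 of 9 endothelial markers were higher with PB1046 (median log2 difference 0.67), and their sum was 270 to 1060 TPM against 232 to 333 TPM under saline. In mdx 2 of 9 were higher, with sums of 201 to 1320 and 338 to 753 TPM. None was at 0 in all libraries. With the endothelial score as a term of the fit, the Sgk1 difference with PB1046 was 0.225 in mdx:Utrn+/- and 0.61 in mdx. Between genotypes under saline it was -0.47 (-1.46 to 0.51) without and 0.235 with that term.

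**Figure D3:**
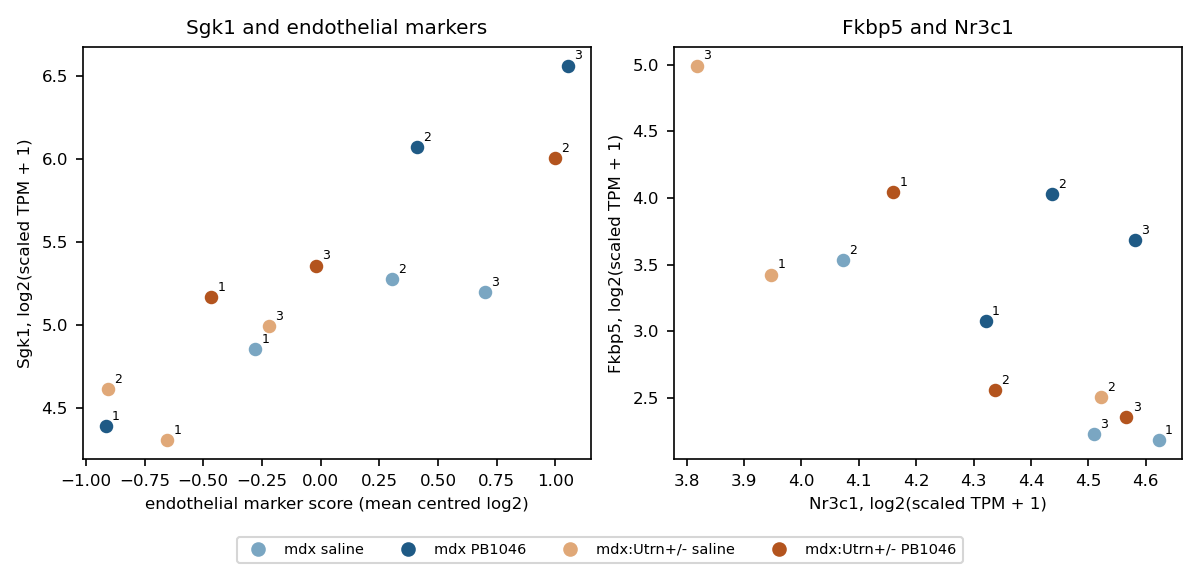
Left, log2 level of Sgk1 against the endothelial marker score (mean over 9 markers of the centred log2 level) in the 12 libraries; right, log2 level of Fkbp5 against that of Nr3c1. Points are libraries coloured by group and numbered by replicate. Sgk1 runs upward with the score (r 0.88) and Fkbp5 downward with Nr3c1 (r -0.70). Replicate 3 of saline-treated mdx:Utrn+/- is the highest library for Fkbp5 and the lowest for Nr3c1.

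Errfi1, also called Mig6, is an inhibitor of the EGF receptor family, and it was highest in PB1046-treated mdx libraries at 16.5, 29.3 and 44.2 TPM. The saline libraries of mdx had 11.6, 18.9 and 11.9 TPM. Levels in mdx:Utrn+/- were 9.57, 11.8 and 6.45 TPM under saline and 13.5, 14.4 and 8.96 TPM under PB1046. All treated mdx libraries were above all treated mdx:Utrn+/- libraries, and within mdx the treated and saline libraries overlapped. The log2 difference with PB1046 in mdx was 0.78 (95% interval 0.14 to 1.41), with a limma adjusted p of 0.9995, and in mdx:Utrn+/- it was 0.25 (-0.39 to 0.88). Under saline the genotypes differed by -0.37 (-1.0 to 0.27), and by -0.13 without replicate 3 of mdx:Utrn+/-. Fibroblast markers, 7 of 7 present, were higher with PB1046 in mdx (7 of 7, summed 471 to 888 against 206 to 589 TPM), and Errfi1 followed their score (r 0.74, 0.81 with group means removed). All 8 cardiomyocyte markers were lower in that comparison (median log2 difference -0.37), and the part of either list in the Errfi1 values was not tested.

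Cdkn1a encodes p21, a cell cycle inhibitor controlled by p53 as well as by glucocorticoids. Its levels were 15.7, 22.7 and 8.56 TPM in mdx under saline and 13.2, 116 and 50.4 TPM under PB1046. Those of mdx:Utrn+/- were 16.6, 10.1 and 27.8 TPM under saline and 38.6, 30.9 and 21.9 TPM under PB1046. Treated replicate 2 of mdx stood far above the rest, while treated replicate 1 lay within the saline range. The log2 difference in mdx was 1.31 (0.04 to 2.59; limma adjusted p = 0.9995), the 45th highest of all genes, and it was 0.69 without replicate 2 and 1.99 without replicate 1 of the treated group. For mdx:Utrn+/- it was 0.65 (-0.62 to 1.93), from 0.31 to 0.99 with replicate 2 or 3 of its saline group left out. Of 12 other p53 targets 11 passed the filter. With PB1046, 5 of 11 were higher in mdx (median -0.01) and 2 of 11 in mdx:Utrn+/- (median -0.05), and none passed the test.

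Klf15 encodes a Kruppel-like factor that controls amino acid and lipid metabolism in heart and muscle. It measured 22.4, 36.5 and 23.5 TPM in mdx under saline and 32.0, 34.9 and 29.5 TPM under PB1046, within the range of the saline libraries. The levels in mdx:Utrn+/- were 21.8, 19.0 and 53.8 TPM under saline and 15.6, 17.1 and 24.4 TPM under PB1046. The high saline value is again replicate 3 of mdx:Utrn+/-. The log2 difference with PB1046 was 0.07 (-0.70 to 0.84) in mdx and -0.71 (-1.48 to 0.06) in mdx:Utrn+/-, the latter -0.28 without that library. Of the other Kruppel-like factors, 10 of 15 passed the filter. With PB1046 all 10 had higher fitted values in mdx (median 0.29) and 6 of 10 in mdx:Utrn+/- (median 0.04), and none passed the test. Under saline Klf2, an endothelial factor induced by flow, stood at 89.6 ± 24.7 TPM in mdx against 51.0 ± 10.4 TPM in mdx:Utrn+/- (n = 3 each, log2 difference -0.57, limma adjusted p = 0.8733). Klf6 (log2 difference -0.42) and Klf4 (-0.51) ranked ahead of Klf2 by unadjusted p there, and 5 of the 10 factors were higher in mdx:Utrn+/-.

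**Figure D4:**
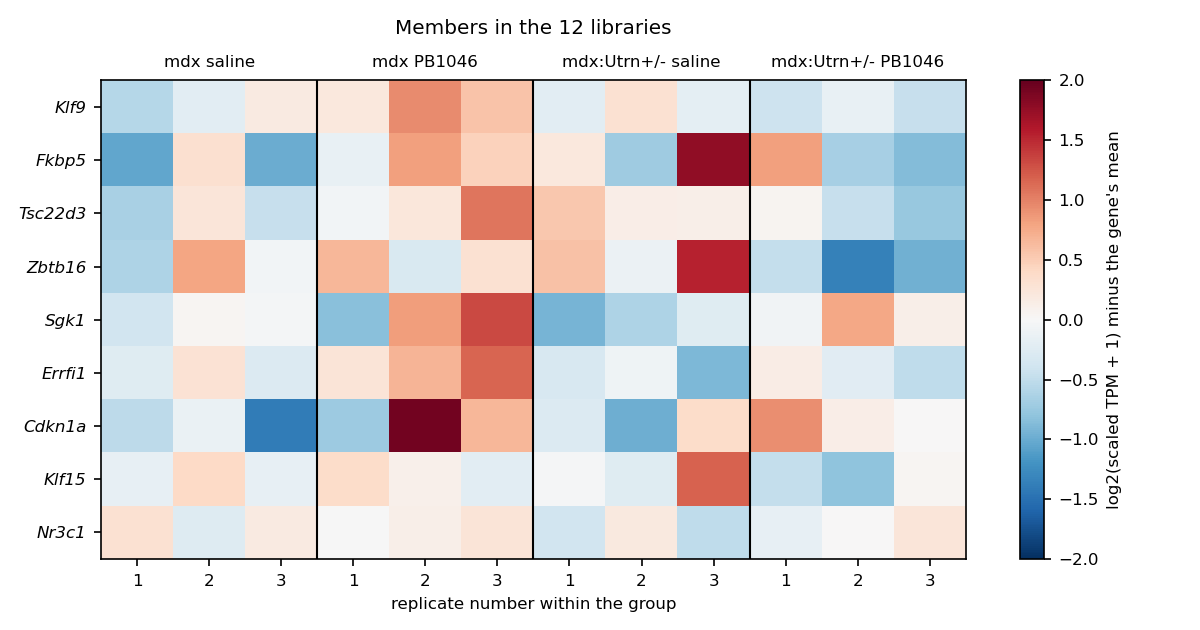
Log2(scaled TPM + 1) of the 9 genes (rows) in the 12 libraries (columns, by group and replicate) as the difference from each gene's mean, on a scale from -2 (blue) to 2 (red). Replicate 3 of saline-treated mdx:Utrn+/- is the highest library for Fkbp5, Zbtb16 and Klf15 and the lowest for Nr3c1 and Errfi1.

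Across the 9 genes, PB1046 in mdx gave higher fitted values for 9 of 9, with a median log2 difference of 0.71. Of all genes 46.5% were higher, and their median was -0.02. Klf9 was chosen on libraries that include these treated ones, so its place in the count and median is a description. Zbtb16, Klf15 and Nr3c1, whose differences were near 0, turned sign when certain single libraries were left out. Of the 8 tested genes 0 passed an adjusted p of 0.05 (0.0% of all genes did), and 2, Errfi1 and Cdkn1a, had an unadjusted p under 0.05 (3.18% of all genes). Klf9 alone was above saline without overlap on scaled TPM (3.42% of all genes), and on deposited TPM it overlapped. That Klf9 value uses treated libraries by which the gene was chosen. Depth and Rn45s also separated the treated from the saline mdx libraries, and the part of depth was not tested.

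PB1046 in mdx:Utrn+/- gave higher values for 4 and lower values for 5 of the 9 (median -0.31, all genes 0.02). The lower 5 include Klf9, whose choice used these treated libraries. Again 0 of 8 tested genes passed (0.0% of all genes). Zbtb16 was the single member with an unadjusted p under 0.05 (1.92% of all genes). Sgk1 was above saline without overlap (3.63% of all genes), and Tsc22d3 and Zbtb16 were below it (2.12%).

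Between genotypes under saline, 6 of 9 were higher in mdx:Utrn+/- (median 0.28, all genes -0.02). None of the 9 passed the test (0.0% of all genes), had an unadjusted p under 0.05 (3.82% of all genes) or differed without overlap (3.82% of all genes higher and 5.67% lower). Adjusted p-values from limma were 0.8673 to 0.9021. Under PB1046, the contrast that chose Klf9, all 9 were lower in mdx:Utrn+/- (median -0.61, all genes 0.03), with Cdkn1a, Sgk1 and Nr3c1 turning sign when certain single libraries were left out. On scaled TPM Klf9, Zbtb16 and Errfi1 were lower without overlap (2.87% of all genes), and on deposited TPM also Tsc22d3 and Klf15 (6.33% of all genes on that scale). Comparisons of PB1046 in mdx and of genotypes under PB1046 share the treated mdx libraries, so the direction in the latter is not independent of that in the former.

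The response to PB1046 was lower in mdx:Utrn+/- than in mdx for 7 of 9 genes (median difference of responses -0.78, all genes 0.04). Of the 8 tested, 0 passed an adjusted p of 0.05 in limma (0.0% of all genes). Tsc22d3, at -1.36 (-2.38 to -0.34), and Zbtb16, at -1.79 (-3.17 to -0.40), had an unadjusted p under 0.05 (2.47% of all genes; adjusted p = 0.9997 for both). Fkbp5 differed by -1.61 (-3.51 to 0.30) and by -0.93 without replicate 3 of saline-treated mdx:Utrn+/-. Klf9, which is among the 7, differed by -1.08 and was not tested, since it was chosen on the treated libraries. Sgk1 and Nr3c1 were the 2 genes with a larger response in mdx:Utrn+/-, at 0.31 (-1.09 to 1.70) and 0.21 (-0.47 to 0.90). The Sgk1 value turned to -0.389 with the endothelial score as a term of the fit and to -0.33 without replicate 1 of treated mdx, where the count of 7 no longer held.

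A list of 32 other genes known to be induced by glucocorticoids in some tissue was read beside the members. With PB1046, 25 of the 30 that passed the filter were higher in mdx (median 0.42) and 9 of 30 in mdx:Utrn+/- (median -0.29). Of all genes 46.5% and 53.4% were higher (medians -0.02 and 0.02). Under saline 24 of 30 were higher in mdx:Utrn+/- than in mdx (median 0.34), and under PB1046 5 of 30 (median -0.33). Of all genes 48.1% and 54.1% were higher there (medians -0.02 and 0.03). These comparisons share groups, so their directions are not independent of each other. No gene of the list passed the test in any contrast.

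Foxo3, a transcription factor of stress resistance and atrophy programs, was 7.87 ± 1.70 TPM in PB1046-treated and 3.60 ± 1.17 TPM in saline-treated mdx (n = 3 each, log2 difference 0.80, limma adjusted p = 0.9995). Ddit4, an inhibitor of mTORC1, was 103 ± 53.2 and 31.6 ± 22.2 TPM in the same groups. Pdk4, which restrains glucose oxidation, was 233 ± 115 and 68.7 ± 71.7 TPM. Of these only Foxo3 was above saline without overlap, as were 4 of the 30 in all (3.42% of all genes).

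In mdx:Utrn+/- Cebpb, a transcription factor of inflammation and metabolism, was 22.3 ± 5.68 TPM with PB1046 and 40.1 ± 13.6 TPM with saline (n = 3 each, log2 difference -0.93, limma adjusted p = 0.9998). Glul, the glutamine synthetase, was 220.0 ± 50.6 and 356 ± 84.2 TPM. Under saline Cebpb was 21.1 ± 6.38 TPM in mdx, 1.09 lower on the log2 scale than in mdx:Utrn+/- (limma adjusted p = 0.8673). Since the comparisons share the saline libraries of mdx:Utrn+/-, their values are given side by side only.

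**Figure D5:**
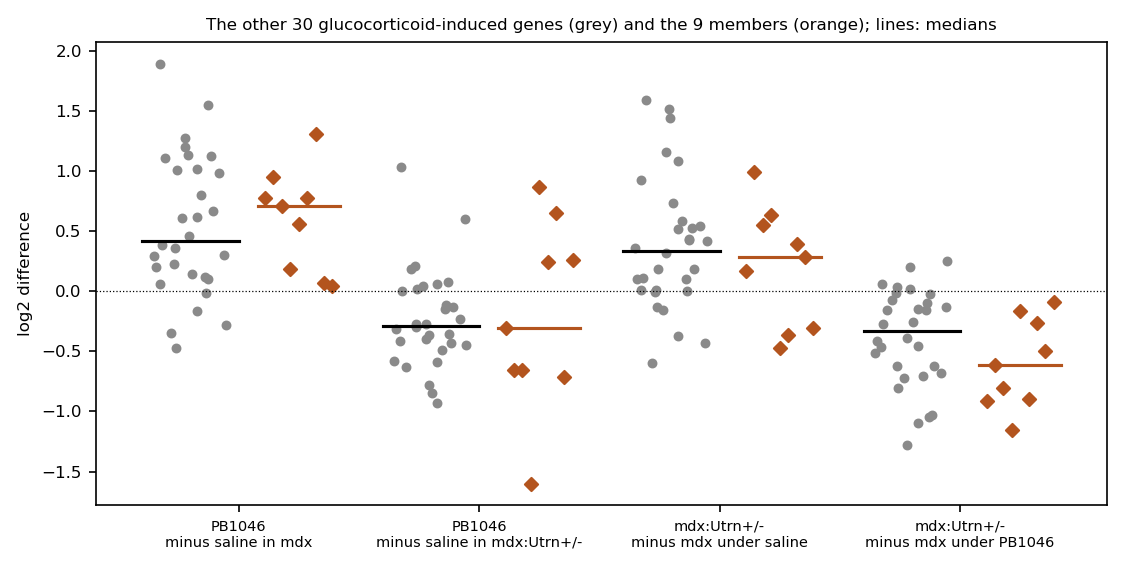
Log2 differences of the 30 other glucocorticoid-induced genes (grey points) and the 9 genes described here (orange diamonds) in the 4 simple comparisons, with the median of each set (lines). Medians of the 30 are 0.42, -0.29, 0.34 and -0.33 and those of the 9 are 0.71, -0.31, 0.28 and -0.61, in the order plotted. The 9 include Klf9, which was chosen on the treated libraries.

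The members did not move as a single block from library to library. Over the 12 libraries, which share depth and composition differences, Zbtb16 ran with Klf15 (r 0.82, and 0.74 with group means removed) and with Fkbp5 (0.63 and 0.72), Fkbp5 with Cdkn1a (0.66 and 0.75), and Tsc22d3 with Errfi1 (0.61 and 0.82). Fkbp5 and Zbtb16 ran against the receptor gene Nr3c1 (r -0.70 and -0.64, and -0.79 and -0.81 with group means removed). Replicate 3 of saline-treated mdx:Utrn+/- was the highest of the 12 libraries for Fkbp5, Zbtb16 and Klf15 and the lowest for Nr3c1. Correlations were not computed without that library, so its part in the values among these genes was not tested. The score of the other glucocorticoid-induced genes ran with Fkbp5 (r 0.78), Tsc22d3 (0.77) and Cdkn1a (0.69). It ran less with Errfi1 (0.49), Klf9 (0.47), Zbtb16 (0.44), Klf15 (0.30) and Sgk1 (0.12), and against Nr3c1 (-0.37). With group means removed the value for Klf9 was -0.22 and that for Nr3c1 was -0.60, and the other members had 0.07 (Sgk1) to 0.78 (Fkbp5 and Cdkn1a).

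The genes most like Klf9 were not members. On the log2 scale over the 12 libraries, Peli2 (r 0.915), Isg15 (0.895), D830031N03Rik (0.891), Uhmk1 (0.887) and Mex3c (0.887) had the highest Pearson r of 12797 genes, of which 8.42% exceeded 0.5. Peli2 encodes a ubiquitin ligase of innate immune signaling and Isg15 an interferon-induced ubiquitin-like protein. Errfi1 was the closest member (r 0.66), followed by Tsc22d3 (0.52), Sgk1 (0.43) and Cdkn1a (0.31), and Klf15 was at 0.02. With group means removed the closest genes were Zfyve19 (0.967), Gm14207 (0.958), Btbd7 (0.948), Pawr (0.922) and Slc25a30 (0.921), and 14.3% of genes exceeded 0.5. Sgk1 was then the closest member (0.54), at rank 1552 of 12797, while Zbtb16 (r -0.40) and Klf15 (-0.40) ran the other way.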

How the data were processed

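The deposited table holds, per library, values named as raw counts that are TPM: each library sums to 1000000. Per the file headers the authors added 6 pairwise comparisons with log2 fold changes, log2 CPM, likelihood ratio scores, p-values and false discovery rates. For these the authors used edgeR, and mm10 as genome build, per the submitters' processing notes. Aligner and read counter: not given in the sources used here. The sign of the deposited log2 fold changes was read from the TPM (r 0.96 to 0.981 across genes with the group named last minus the group named before it).

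TPM were divided by trimmed-mean factors (0.842 to 1.32; 30% of log ratios and 5% of levels trimmed). Genes reaching 1 TPM in 3 or more libraries, 12798 in all, were fitted as log2(TPM + 1) with limma 3.58.1 (R 4.3.3; trend and robust moderation), 1 mean per group and 8 residual degrees of freedom. P-values were adjusted by Benjamini-Hochberg over all genes tested, with a threshold of 0.05 and 95% intervals. Whole reads were recovered from the TPM for 100% of 18530 genes (tolerance 0.1 reads) and served depth and limma-voom. The fits were also run on simulated reads with known changes, as a check of the code only. The power at the spread between these libraries was not tested.

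The members and gene lists were chosen with earlier results of these data known. Genes were named by a rule: the members, Utrn, Rn45s, up to 4 genes per list and contrast with the smallest unadjusted p (a choice of these is printed), and the 5 genes closest to Klf9. Replicate numbers were not used to pair libraries in the main fit. Correlations of the deviations of same-numbered libraries ran from -0.446 to 0.491, and from 0.008 to 0.491 for replicate 1. Whether same-numbered libraries were handled together was not tested. Alternatives were another pseudocount (0.1), no filter, other scaling, limma-voom, Rn45s or the endothelial score as a covariate, the compared groups alone, a replicate block and each library left out.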

Additional observations from a re-analysis of the deposited data

How the results depend on the processing

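With 3 libraries a group, 0 genes passed in any contrast under any alternative, except that 1 gene passed for the difference of the PB1046 responses without mdx:Utrn+/- saline replicate 3 (range 0 to 1 over left-out libraries; 0 to 0 for the other contrasts). With the replicate block the fits called 0 in every contrast. Counts at an unadjusted p under 0.05 were 516, 348, 867, 331 and 402, against 407, 246, 489, 226 and 316 without the block. Klf9 between genotypes under saline was 0.17 with the replicate block, -0.039 on TPM as deposited, and -0.02 to 0.36 over left-out libraries (0.00 without mdx:Utrn+/- saline replicate 2). With the endothelial score as a covariate Sgk1 turned to 0.235 between genotypes under saline and to -0.389 for the difference of responses, which was -0.33 to 0.75 over left-out libraries. Left-out libraries also turned small differences: PB1046 in mdx ranged from -0.15 to 0.58 for Zbtb16 (-0.04 without mdx PB1046 replicate 1), from -0.07 to 0.28 for Klf15 (-0.025 without mdx saline replicate 1 or 3) and from -0.095 to 0.155 for Nr3c1 (-0.025 without mdx PB1046 replicate 3), PB1046 in mdx:Utrn+/- from -1.23 to 0.02 for Fkbp5, and genotype under saline from -0.15 to 0.56 for Klf15. The cause of these turns was not tested. The fit on the compared groups alone was not run for the difference of responses, which needs all 4 groups.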

Other observations

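Clock genes, which glucocorticoids help to set and whose products shape the daily glucocorticoid rhythm, were among the lists read beside the members, and the labels give no hour of collection. Of 18 genes, 13 were lower with PB1046 in mdx:Utrn+/- (median log2 difference -0.39) and 14 in mdx (median -0.28), and none passed the test in limma. In mdx:Utrn+/- 2 of the 18 were above and 5 below saline without overlap (3.63% and 2.12% of all genes). At an unadjusted p under 0.05 in limma stood 2 higher and 6 lower genes (1.92% of all genes, both directions together). Arntl, the core activator, was 7.15 ± 5.23 TPM with PB1046 and 0.99 ± 0.296 TPM with saline in that genotype (n = 3 each), and Clock, its partner, was 7.92 ± 3.15 and 3.65 ± 0.886 TPM, both without overlap. Cry2, a repressor, was 10.5 ± 0.66 and 16.2 ± 0.137 TPM and Tef, an output factor, 70.6 ± 12.3 and 122 ± 42 TPM, both lower without overlap. Limma adjusted p was 0.9998 for each of these 4 genes. In mdx Dbp, another output factor, was 82.3 ± 76.5 TPM with PB1046 and 143 ± 45.5 TPM with saline, with overlap.

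Immediate early and heat shock genes, which rise when tissue is dissociated into cells, were lower for 9 of 14 with PB1046 in mdx (median -0.42) and higher for 10 of 14 in mdx:Utrn+/- (median 0.10), and none passed the test. Their summed level was 836 to 1310 TPM in mdx under saline and 797 to 1120 TPM under PB1046, and 527 to 1180 and 458 to 1160 TPM in mdx:Utrn+/-. Across libraries their score was unrelated to Klf9 (r -0.08).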
